A study of Mus musculus with 10 samples.

Results

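The genes of the cytosolic ribosomal proteins were followed in Ly6C-high monocytes of the mouse spleen. They were chosen by name alone, as every gene symbol made of Rpl or Rps and a number (with an optional a, x, l or l1), the 3 stalk genes Rplp0, Rplp1 and Rplp2, and Rpsa. Of 83 symbols that fit, 81 reached 1 TPM (transcripts per 1e6 transcripts, a level per gene length) in at least 3 of 10 libraries, out of 12938 genes that passed the same filter and 24421 symbols in the tables. These 81 hold 32 genes of the small subunit and 49 of the large subunit, stalk included. The remaining 2 were Rpl30, which was listed at 0 in all 10 libraries, and Rpl10l, which reached at most 0.974 TPM. Rpl30 encodes a core protein of the large subunit, so its 0 describes the table and is not read here as absence of the RNA.

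Monocytes were sorted by flow cytometry (CD11b+ Ly6G- F4/80+ Ly6C-high CD115+) from spleens depleted of T and B cells, on day 5 after surgery in adult male mice of the C57BL/6 strain. Surgery was either MI, in which the left anterior descending artery of the heart was tied off for good, or sham, in which the chest was opened and the artery was not tied. WT mice after sham surgery gave 3 libraries (replicates 1 to 3), WT mice after MI gave 3 (replicates 2 to 4) and Foxp3DTR mice after MI gave 4 (replicates 1 to 4). In Foxp3DTR mice the Foxp3 promoter drives the human receptor of diphtheria toxin (DTX), and regulatory T cells (Tregs), which use this promoter, are killed by the toxin. Ablation used 500 ng of DTX on each of the last 2 days before surgery and 250 ng on day 2 after it. By the account of the study this lowered the Foxp3+ part of CD4+ T cells in the spleen but did not remove it, so Treg loss here means partial loss. The text of the study describes the WT mice after MI that were set against Foxp3DTR mice as given DTX too, while the labels of the WT libraries do not name the toxin. A difference between Foxp3DTR and WT mice after MI joins genotype and Treg loss, and a difference from sham joins surgery as well. For the sham mice of these libraries the study does not state the toxin, so comparisons with sham may differ in the toxin too. Each library was taken as 1 animal, which the labels do not spell out, and the p-values measure the spread between these libraries.

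The ribosome is built from 2 subunits, each a core of ribosomal RNA covered by many proteins. The small subunit reads the messenger RNA, the large subunit joins the amino acids, and the stalk proteins of the large subunit recruit the translation factors. Most of these proteins are needed in equal numbers, and their genes are known for being expressed together and at a high level. Their mRNAs start with a stretch of C and T bases, the terminal oligopyrimidine (TOP) tract, through which the kinase complex mTORC1 and the RNA-binding protein Larp1 control their translation and stability as a group. Some ribosomal proteins also have duties outside the ribosome. Rpl13a, for example, is part of the GAIT complex, which silences inflammatory mRNAs after interferon-gamma, and Rpl5 and Rpl11 hold back Mdm2 when ribosome assembly is disturbed.

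The starts of the genes are shown because the TOP tract is the sequence feature by which these mRNAs are known. RefSeq promoter sequences (GRCm38.p6) were given for 61 of the 81 genes, and in 59 of these the annotated start lay within 50 bases of the gene start in the deposited tables. Each line below holds 15 bases before the start and 15 from the start on, on the coding strand, and capitals mark an unbroken run of C and T bases that covers the start. The first set holds genes with a long run.
Rps27 (chr3:90213634-90213663, minus strand): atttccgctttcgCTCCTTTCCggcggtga
Rps15a (chr7:118116133-118116162, minus strand): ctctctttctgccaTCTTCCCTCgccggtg
Rps6 (chr4:86857353-86857382, minus strand): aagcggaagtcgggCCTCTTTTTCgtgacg
Rplp2 (chr7:141447636-141447665, plus strand): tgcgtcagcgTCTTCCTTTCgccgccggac
Rpl28 (chr7:4792950-4792979, plus strand): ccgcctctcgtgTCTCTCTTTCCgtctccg
Rpl7a (chr2:26910792-26910821, plus strand): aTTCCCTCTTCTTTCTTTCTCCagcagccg

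The second set holds genes of the results below whose annotated start falls in a short run or in none.
Rpl37a (chr1:72711245-72711274, plus strand): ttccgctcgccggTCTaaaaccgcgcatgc
Rpl11 (chr4:136053379-136053408, minus strand): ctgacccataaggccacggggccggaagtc
Rpl4 (chr9:64173372-64173401, plus strand): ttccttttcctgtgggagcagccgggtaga
Rps27l (chr9:66946071-66946100, plus strand): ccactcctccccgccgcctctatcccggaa
Rpl7l1 (chr17:46782642-46782671, minus strand): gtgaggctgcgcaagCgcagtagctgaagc
Rpl39l (chr16:10170213-10170242, plus strand): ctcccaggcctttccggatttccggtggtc

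A run of at least 5 C or T bases over the start was present in 18 of the 61 genes (29.5%) and in 9.95% of 27018 promoters of the same length. The start base itself was C in 32.8% of the ribosomal protein genes and in 16.2% of all promoters. The 300 bases around the start (250 before and 50 from it on) were searched on both strands for CCGGAAG, the core of the site of ETS family factors, which was found in 39.3% of these genes and in 9.12% of all promoters. AAGATGGC, the core of the YY1 site, was found in 9.84% and 2.88%. TATAAA, searched on the coding strand from 40 to 15 bases before the start, was found in 1.64% and 2.22%. These are matches of letters in a window, and annotated starts that lie a few bases off the true start move the run.

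Ribosomal protein genes held between 2.69 and 3.75% of all deposited TPM in these libraries, whose depth, inferred from the tables, ran from 3.13 to 8.40 (in units of 1e6 reads). By library, their share of all deposited TPM was 3.20, 3.47 and 3.11% after sham surgery, 3.75, 2.93 and 3.23% in WT mice after MI, and 3.00, 2.78, 2.69 and 3.35% in Foxp3DTR mice after MI. The means were 3.26% ± 0.185 (SD, n = 3), 3.30% ± 0.415 (SD, n = 3) and 2.95% ± 0.294 (SD, n = 4), and the 3 groups overlapped. The small subunit genes summed to 0.752 to 0.811 of the large subunit genes in every library, with group means of 0.781 ± 0.0251 after sham surgery, 0.785 ± 0.00108 in WT mice and 0.783 ± 0.0264 in Foxp3DTR mice after MI. The 2 subunits thus kept their proportion across the groups to within the spread between libraries.

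All further levels are scaled TPM, that is TPM divided by 1 factor per library, the median over genes of the ratio to the mean library, so that the typical gene is level between libraries. The factors ran from 0.850 to 1.13. On this scale, rounded to 4 significant digits, the sum over the 81 genes was 31000, 35540 and 29480 after sham surgery. It was 41060, 31110 and 37990 in the WT libraries after MI, and 26640, 24470, 25060 and 35640 in the Foxp3DTR libraries. Libraries 1, 2 and 3 of the Foxp3DTR mice lay below all other libraries, whereas library 4 lay among those of the WT mice. Within the Foxp3DTR group, 78 of the 81 genes had their highest level in library 4. The share of all TPM held by the 10 most abundant RNAs of a library was likewise lowest in Foxp3DTR libraries 1 to 3. It was 17.7, 17.3, 17.97 and 23.0% in Foxp3DTR libraries 1 to 4, 24.8, 27.6 and 30.3% in the WT MI libraries and 20.6, 24.2 and 22.9% in the sham libraries. Within the WT MI libraries it did not follow the sum, since library 2 had the highest sum and the lowest share, and its part in the result was not tested.

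**Figure D1:**
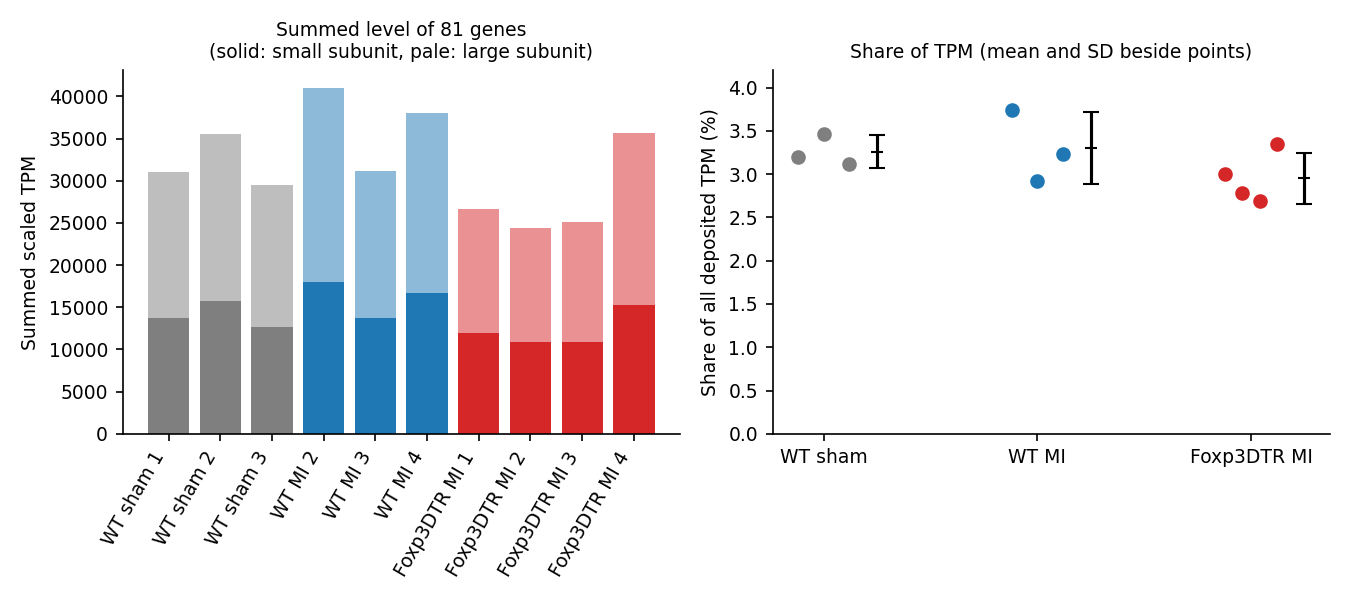
Left, summed scaled TPM of the 81 ribosomal protein genes in each library (bars, solid for the small and pale for the large subunit). Right, their share of all deposited TPM in percent, 1 point per library with the group mean and SD beside it. Libraries 1 to 3 of the Foxp3DTR mice lie at 24470 to 26640, and the shares of the 3 groups overlap.

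Single genes of the family stood at very different levels. The lowest 5 by mean scaled TPM over 10 libraries were Rpl39l (0.677), Rpl3l (1.63), Rps4l (10.3), Rps15a (32.1) and Rpl21 (38.0). The highest 5 were Rpl41 (1118), Rplp1 (1233), Rps20 (1283), Rpl4 (1504) and Rpl32 (2122). The 10 highest genes of a library held 35.4 to 39.7% of the summed level of all 81. Neighbours at the upper end overlapped in range (Rps20 from 1042 to 1666 and Rplp1 from 786 to 1854, for example), as did Rpl39l and Rpl3l at the lower end, whereas Rps4l, at 6.35 to 13.7, overlapped neither of its neighbours. The levels describe the tables, since most of these genes have near copies elsewhere in the genome. Of 80 members with an annotated coding sequence, 29 shared every stretch of 50 coding bases (the read length) with at least 1 other annotated gene, 36 shared at least 50% but not all, and 15 shared less than 50%. Rpl7a shared 93.3% of its stretches with 123 other genes, while Rpl39l and Rpl3l shared none.

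Reads of some copies could be seen in the tables under a symbol of their own. Rps15a stood at 26.7 to 41.1 scaled TPM, whereas its annotated copies Rps15a-ps4 and Rps15a-ps6 stood at 190 to 347 and at 84.6 to 154. Rpl14-ps1 stood at 589 to 765. The copy Rpl37rt was at 1.9 to 4.8 in 7 libraries and at 598, 648 and 414 in sham 2, WT MI 2 and Foxp3DTR 2, and Rplp2-ps1 was at 8.9 to 13.6 in 5 libraries and at 183 to 353 in the other 5. These steps do not follow the groups. Those of Rpl37rt follow the replicate number, since all 3 high libraries are number 2 of their group, and those of Rplp2-ps1 do not. When the 9 annotated copies were added to their members, an analysis added after the data had been seen, the medians of the 3 comparisons were 0.17, -0.37 and -0.20, the same to 2 decimals as without the copies. These copies belong to few members, and Rpl34-ps1 and Rps27rt were at 0 in every library, so the medians could hardly move. Copies under other symbols were not added, and the effect of shared reads on the family stays untested. The sources used here do not give how reads that map to several places were counted.

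MI moved no ribosomal protein gene of WT monocytes past the threshold. Of the 81 genes, none passed an adjusted p of 0.05 in limma against sham surgery, and none of all genes tested did (0.0% called). Their fold changes leaned upward, with 72 of 81 above 0 and a median log2 fold change of 0.17, against -0.00 over all 12938 genes tested and 0.06 over 2219 other genes of like level. At an unadjusted p under 0.05, 2 genes were higher (2.2% of all genes were) and 1 was lower (2.44% of all genes were). In 6 members (7.41%) every library after MI lay above every sham library, against 3.18% of all genes and 4.24% of the genes of like level. In 1 member (1.23%) every library lay below, against 3.73% of all genes. Without scaling the median was -0.0073, beside -0.17 over all genes, so that the lean above the typical gene was 0.16 with deposited TPM and 0.18 with scaled TPM. Only 35 of the 81 genes were above 0 without scaling, and 46 were below. With quantile normalization the median was 0.068, the lean above the typical gene was 0.075, and 57 of 81 were above 0, so the size of the lean depends on the normalization. Without WT MI library 2 the median was 0.07 and without WT MI library 3 it was 0.28.

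Rpl7a and Rpl11 had the lowest p-values among the genes above 0 after MI. Rpl7a, a large subunit protein, read 157, 123 and 140 scaled TPM after sham surgery and 184, 162 and 203 in WT mice after MI, with no overlap between the groups. The log2 difference was 0.39 (SE 0.14, limma adjusted p = 0.960). Rpl11 read 219, 275 and 233 after sham surgery and 322, 278 and 359 after MI, again without overlap (log2 difference 0.40, SE 0.17, limma adjusted p = 0.960). Rps25, a small subunit protein used by viral internal ribosome entry sites, came after them at 0.32 (SE 0.15, limma adjusted p = 0.960), and its groups overlapped. Of the genes below 0, Rps4l stood at -0.20 (SE 0.25) and Rpl28 at -0.13 (SE 0.16), neither near the threshold. The one gene below 0 with a low p was Rpl39l, the testis-type copy of the exit tunnel protein Rpl39. Rpl39l passed the filter only through the 3 sham libraries, so its low p and lack of overlap follow in part from the filter and are not read as a result. It read 1.1, 2.94 and 1.55 after sham surgery, was listed at 0 in all 3 WT libraries after MI, and read 0, 0.421, 0 and 0.757 in Foxp3DTR mice, so that no fold is given.

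After Treg ablation the family stood lower as a group on the scaled level. In Foxp3DTR against WT mice after MI, log2 fold changes were below 0 in 77 of 81 members, with a median of -0.37 (quartiles -0.49 and -0.24), against 0.00 over all genes tested and -0.01 over the 2219 other genes of like level. An adjusted p of 0.05 was passed by 1 of 81 members, against 1.12% of all genes called in either direction and 0.433% called lower. At an unadjusted p under 0.05, 35 members (43.2%) were lower, against 8.42% of all genes, and none was higher. In 15 members (18.5%) every Foxp3DTR library lay below every WT library, against 9.02% of all genes, and in no member did they all lie above. Among the 2219 other genes of like level these shares were higher, 14.5% at an unadjusted p under 0.05 and 14.2% without overlap, so that the 18.5% stands nearer to them than to all genes. They included Rps7, Rps9, Rps10, Rps15a, Rps27, Rps27a, Rpl7, Rpl10, Rpl11, Rpl34, Rpl35, Rpl36 and Rpl37a, some of which are named here only for having met this count.

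The size of this shift depended on the scaling and on single libraries. With deposited TPM the typical gene of the genome stood 0.22 higher (log2) in Foxp3DTR mice, and the median of the 81 genes was -0.12, that is 0.35 below the typical gene, against 0.37 below it with scaled TPM. Under that setting 59 of the 81 genes were below 0 and none was called, and calls over all genes went from 145 (61.4% higher) to 527 (92.6% higher). The 145 calls over all genes also rest on single libraries, with 0 without WT MI library 2, 2 without Foxp3DTR library 3 and 431 without sham library 2. Quantile normalization gave a median of -0.25. The median was -0.46 without Foxp3DTR library 4, -0.25 without WT MI library 2 and -0.45 without WT MI library 3. In a bulk sample, fewer cells with a given RNA and less of that RNA per cell cannot be told apart. Markers of some other cells differed between WT and Foxp3DTR mice after MI, in both directions. B cell markers summed to 15.85 to 20.3 scaled TPM in WT mice and to 9.02 to 15.1 in Foxp3DTR mice. The sums for plasma cells, NK cells, erythroid cells and dendritic cells overlapped between these groups, whereas those for T cells and neutrophils were higher in Foxp3DTR mice. Of 13 T cell markers, 10 were in the tables and summed to 9.29 to 10.2 scaled TPM in WT mice and 33.2 to 137 in Foxp3DTR mice after MI, and 13 neutrophil markers summed to 401 to 694 and 1300 to 2960. After sham surgery these sums were 10.2 to 168 and 626 to 1533. No T cell marker was at 0 throughout a group, and of the neutrophil markers Retnlg was listed at 0 in all 3 WT libraries. The 8 markers of Ly6C-high monocytes summed to 8211 to 9840 and 8944 to 12710. The part of these cell types in the result was not tested.

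**Figure D2:**
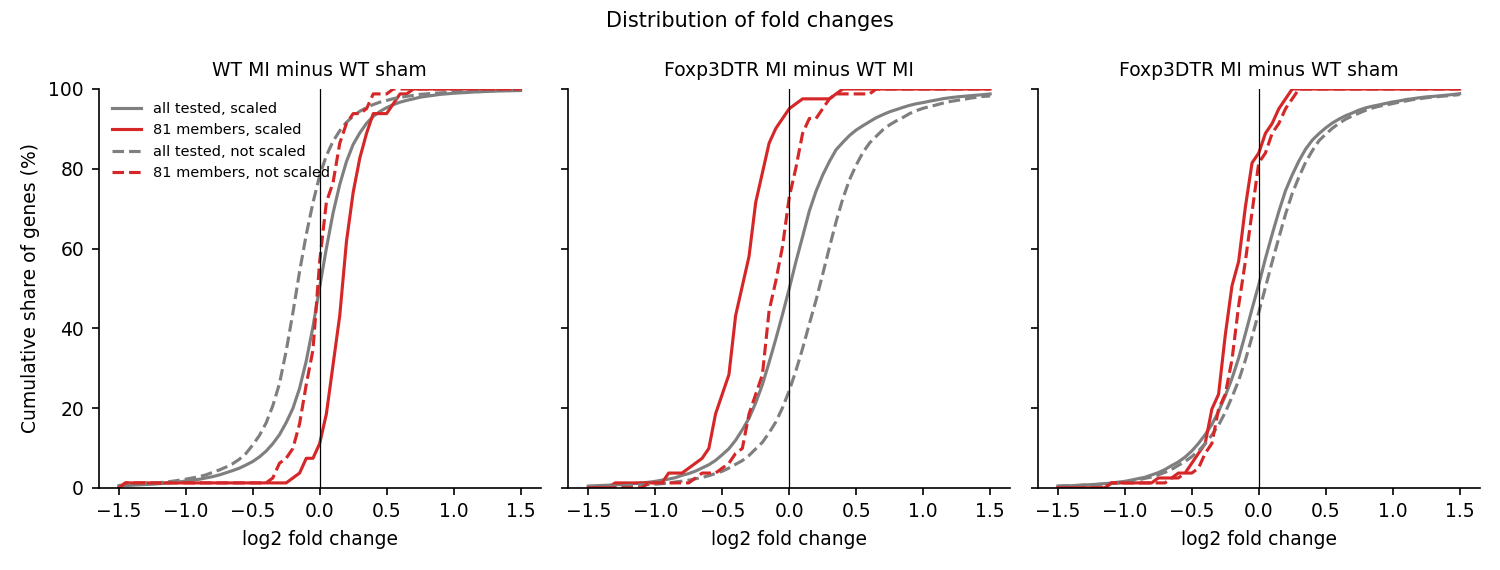
Cumulative share of genes (percent) at or below each log2 fold change, for the 81 ribosomal protein genes (red) and all 12938 tested genes (grey), with scaled TPM (solid) and deposited TPM (dashed), in the 3 comparisons. In Foxp3DTR against WT mice after MI the red lines lie left of the grey ones under both settings, with member medians of -0.37 and -0.12.

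Rps27, a zinc-finger protein of the small subunit whose start carries a run of C and T bases (above), lay close to the threshold. It read 196, 362 and 259 after sham surgery, 337, 297 and 335 in WT mice and 186, 147, 139 and 212 in Foxp3DTR mice after MI. The Foxp3DTR libraries lay below those of the WT mice after MI but overlapped those of sham surgery. The ratio to WT mice after MI was 0.525 (log2 difference -0.93, SE 0.20, limma adjusted p = 0.0570), and 4 of 21 alternative settings brought it past the threshold. All its coding stretches are shared with other genes, 9 in number.

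Of the 32 small subunit genes, 31 were below 0 in this comparison, with a median of -0.37, and 8 did not overlap between the groups. Rps15a, a protein of the small subunit, read 41.1, 34.2 and 35.4 in WT mice after MI and 28.1, 26.7, 27.2 and 30.5 in Foxp3DTR mice (log2 difference -0.38, SE 0.12, limma adjusted p = 0.142). Rps27a, made as a fusion to ubiquitin, read 372, 286 and 326 against 191, 87.5, 189 and 258 (-0.95, SE 0.39, limma adjusted p = 0.240). Its libraries did not overlap, but single libraries were far apart, and it also read 236, 318 and 110 after sham surgery. Rps6, the protein that S6 kinases phosphorylate downstream of mTORC1, was at 422 ± 53.6 (SD, n = 3) and 334 ± 53.3 (SD, n = 4), with overlap (-0.34, SE 0.14, limma adjusted p = 0.246). Rps19, whose loss causes Diamond-Blackfan anaemia in humans, was at -0.29 (SE 0.13, limma adjusted p = 0.259) and Rpsa, which also occurs as a laminin receptor, at -0.41 (SE 0.19, limma adjusted p = 0.299). Rps20 was at -0.29 (SE 0.23) and Rps21 at -0.17 (SE 0.21). None of these passed the threshold.

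Of the 49 large subunit genes, 46 were below 0, with a median of -0.31, 7 did not overlap between the groups, and none passed the threshold. Rpl37a read 348, 263 and 283 in WT mice after MI, 198, 182, 212 and 237 in Foxp3DTR mice, and 291, 298 and 254 after sham surgery, so that the Foxp3DTR libraries lay below all WT libraries. Its log2 difference was -0.52 against WT mice after MI (SE 0.13, limma adjusted p = 0.0798) and -0.44 against sham surgery (SE 0.13, limma adjusted p = 0.134). Rpl11 read 322, 278 and 359 in WT mice after MI and 176, 183, 194 and 272 in Foxp3DTR mice (-0.65, SE 0.16, limma adjusted p = 0.0813). Its partner Rpl5 read 254, 211 and 237 against 208, 186, 197 and 240, with overlap (-0.17, SE 0.11, limma adjusted p = 0.441). Both proteins enter the ribosome with the 5S RNA, and the 2 genes were not tested against each other.

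Some abundant large subunit genes had wide groups. Rpl32, the highest gene of the family, read 2934, 2182 and 3042 in WT mice after MI and 1431, 1345, 1433 and 2354 in Foxp3DTR mice, where library 4 alone overlapped the WT range (-0.75, SE 0.27, limma adjusted p = 0.183). Rpl41, which encodes a very short peptide, read 1630, 1207 and 1531 against 843, 798, 706 and 1444, again with overlap by library 4 only (-0.67, SE 0.27, limma adjusted p = 0.230). Rpl4, by contrast, read 1684, 1333 and 1536 against 1431, 1434, 1392 and 1642, a log2 difference of -0.04 (SE 0.15, limma adjusted p = 0.921) that turned to 0.21 without scaling. Rpl4 shared 20.3% of its coding stretches with other genes. Rpl8, which has 8.73% of them shared, was at -0.04 (SE 0.15) as well, and is named for that share after its value had been seen.

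Rpl13, at a mean of 186 scaled TPM, spread most among the members other than Rpl39l. It read 126, 357 and 112 after sham surgery, 431, 295 and 126 in WT mice and 103, 84.7, 92.5 and 129 in Foxp3DTR mice after MI. Its 3 high libraries were sham 2, WT MI 2 and WT MI 3, and WT MI 4 lay within the Foxp3DTR range, so that the log2 difference of -1.31 (SE 0.45, limma adjusted p = 0.170), the lowest of the family, rests on 2 of 3 WT libraries. All its coding stretches are shared with other genes, 15 in number. Rpl13a, in contrast, was among the genes that followed the family most closely and read 436, 312 and 396 in WT mice after MI and 280, 251, 247 and 374 in Foxp3DTR mice, with overlap (-0.41, SE 0.18, limma adjusted p = 0.274). Rpl38, which is known for a part in the patterning of the embryo, was at -0.27 (SE 0.21, limma adjusted p = 0.539).

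The stalk genes did not pass the threshold either. Rplp0, the base of the stalk, read 913, 736 and 831 in WT mice after MI and 662, 607, 709 and 787 in Foxp3DTR mice (-0.26, SE 0.15, limma adjusted p = 0.412). Rplp1 read 1583, 1186 and 1854 against 942, 786, 968 and 1817 (-0.50, SE 0.29, limma adjusted p = 0.399). Rplp2 read 934, 731 and 931 against 553, 557, 587 and 988 (-0.40, SE 0.21, limma adjusted p = 0.352). In Rplp1 and Rplp2 the first 3 Foxp3DTR libraries lay below the WT libraries after MI, and library 4 lay near or above their highest.

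**Figure D3:**
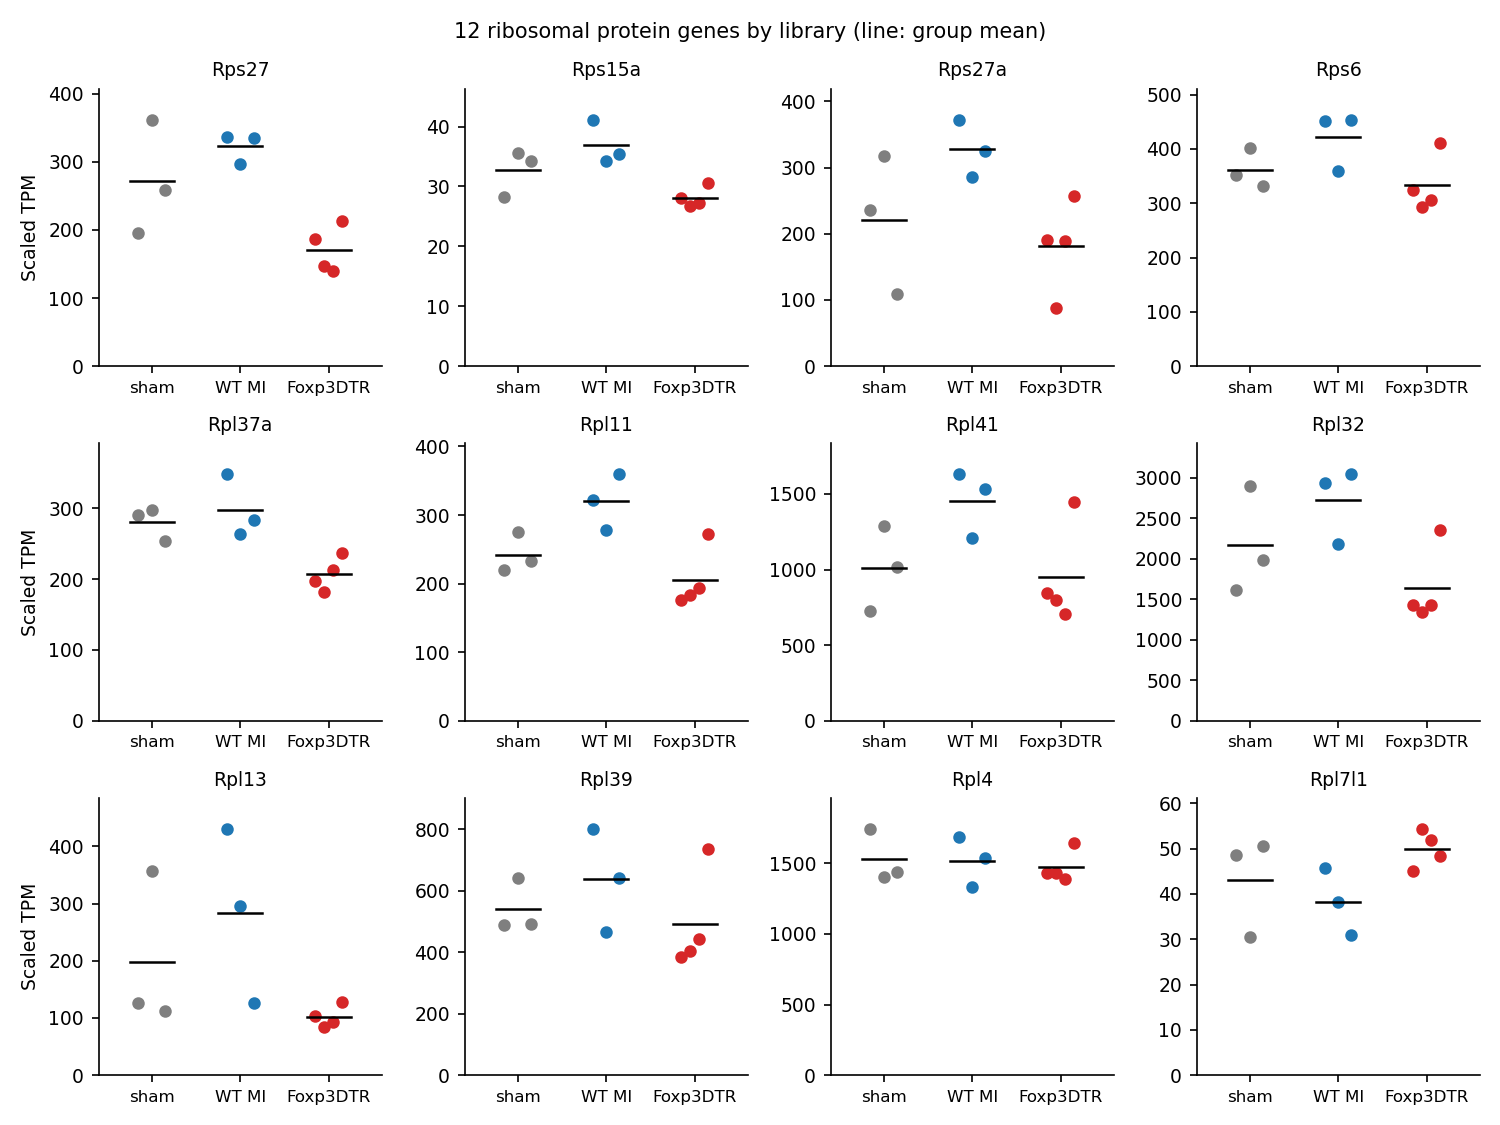
Scaled TPM of 12 ribosomal protein genes in WT mice after sham surgery, WT mice after MI and Foxp3DTR mice after MI (1 point per library, line at the group mean, axes from 0). All 4 Foxp3DTR points of Rps27 (139 to 212) lie below the 3 WT points after MI (297 to 337), whereas in Rpl32, Rpl41 and Rpl39 the highest Foxp3DTR point reaches the WT range.

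The paralogs that end in l or l1 ranged from near their parent gene in level to far below it. Rpl22l1, at 154 ± 40.1 (SD, n = 3) in WT mice after MI and 127 ± 4.96 (SD, n = 4) in Foxp3DTR mice, stood near Rpl22, at 144 ± 33.2 and 115 ± 13, and both overlapped between the groups (-0.24, SE 0.17, and -0.31, SE 0.15). Rps27l, a p53 target, read 332, 204 and 190 in WT mice after MI and 220, 218, 200 and 240 in Foxp3DTR mice, a log2 difference of -0.10 (SE 0.22) beside -0.93 in its parent Rps27. Without scaling that of Rps27l was 0.15. The difference between paralog and parent was not tested. Rpl7l1, which acts in ribosome assembly in the nucleolus, had the largest log2 difference above 0 among the expressed members, 0.39 (SE 0.18, limma adjusted p = 0.308), with 45.8, 38.1 and 30.9 in WT mice after MI and 45.0, 54.4, 51.8 and 48.3 in Foxp3DTR mice, while its parent Rpl7 read 805, 769 and 835 against 621, 563, 524 and 715 (-0.41, SE 0.14, limma adjusted p = 0.164). Rps4l stood at 0.06 (SE 0.24) beside -0.20 (SE 0.13) in Rps4x, and Rpl39 at -0.39 (SE 0.25). Rpl3l, the form of heart and skeletal muscle, stood at 1.66 ± 0.164 (SD, n = 3) and 1.69 ± 1.07 (SD, n = 4) beside 268 ± 18.8 and 245 ± 45.5 for Rpl3.

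**Figure D4:**
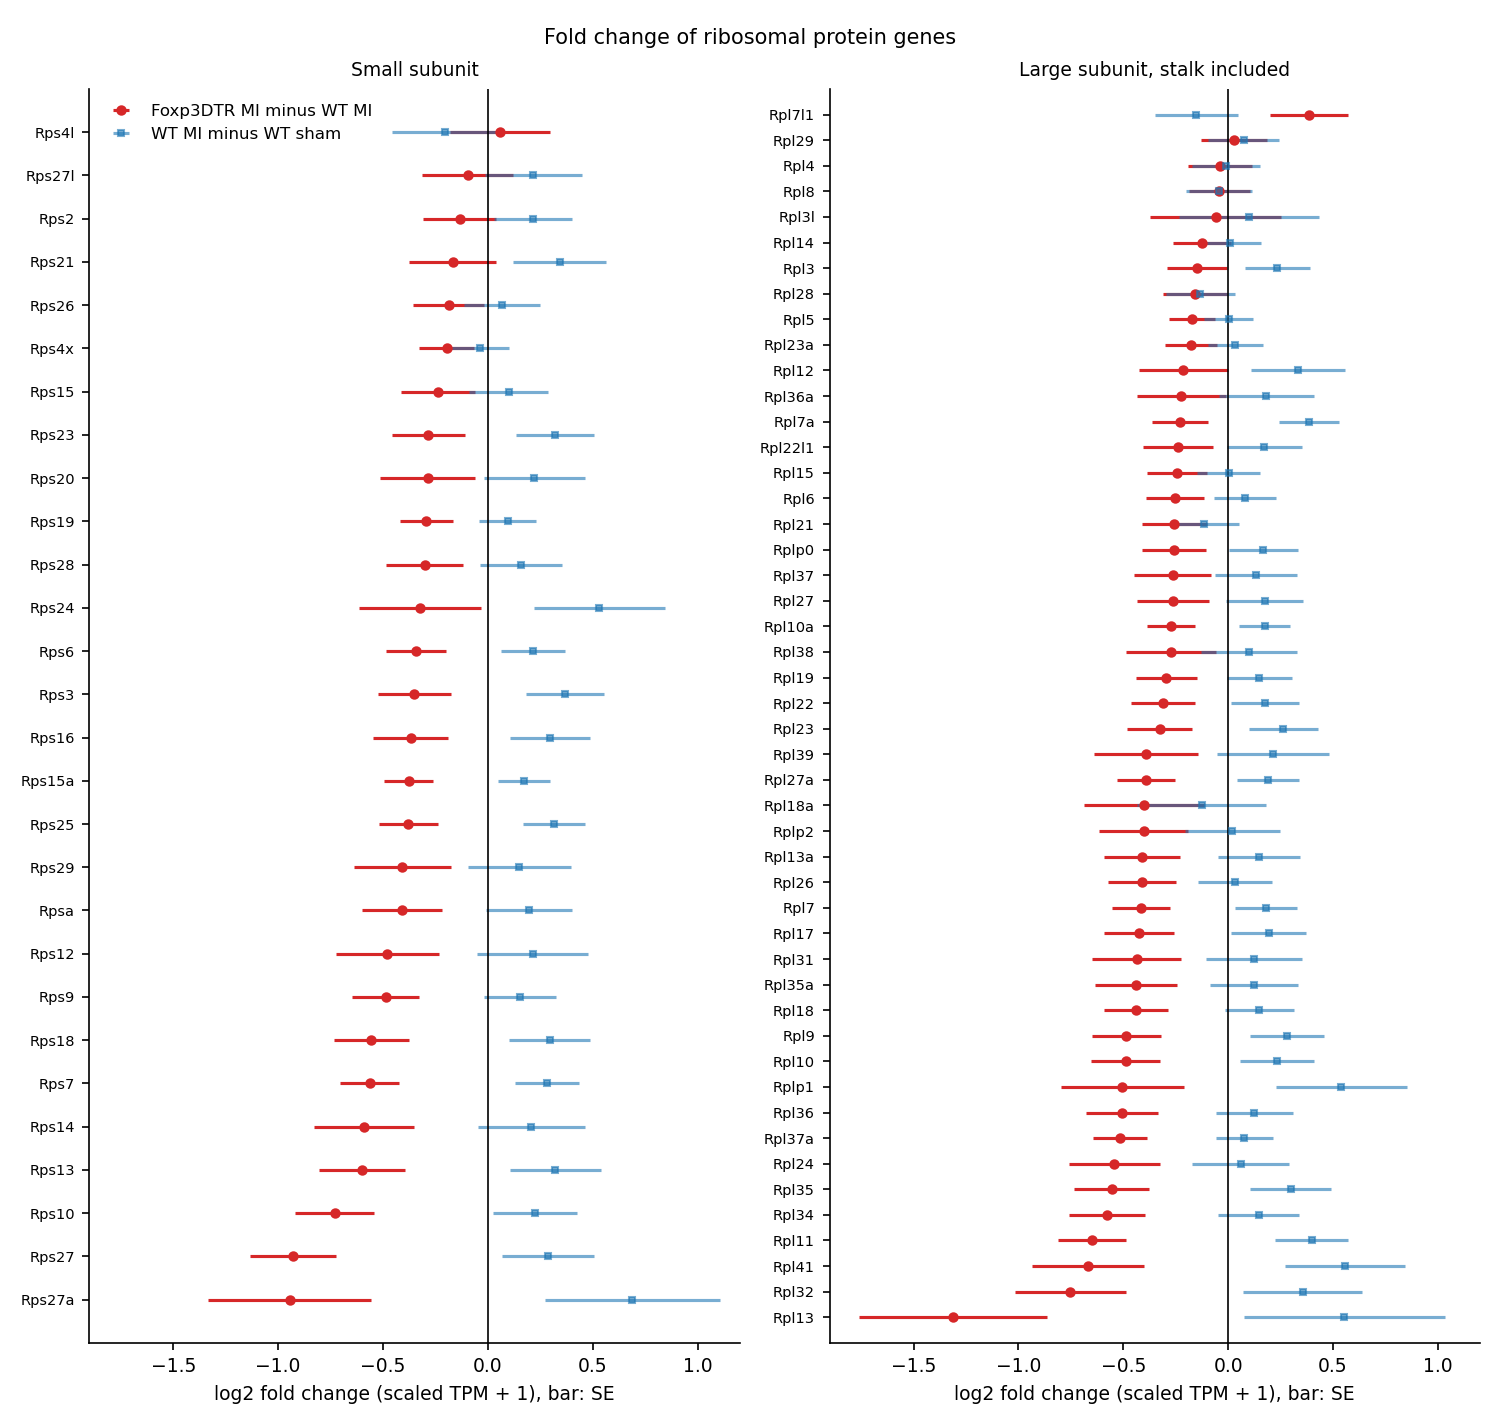
log2 fold change of 76 ribosomal protein genes with its SE, for Foxp3DTR against WT mice after MI (red circles) and MI against sham surgery in WT mice (blue squares), in order of the red values. Rpl39l is left out because it was listed at 0 in all WT libraries after MI. Most red points lie below 0 and most blue points above it, and both comparisons use the 3 WT libraries after MI.

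Against sham surgery the family in Foxp3DTR mice after MI stood lower by less. The median log2 fold change was -0.20, with 68 of 81 genes below 0, against -0.01 over all genes tested. No member passed the threshold, where 0.541% of all genes did. At an unadjusted p under 0.05, 10 members were lower (8.41% of all genes) and none higher, and in 4 members, Rpl26, Rpl37a and Rpl39l among them, all Foxp3DTR libraries lay below all sham libraries (8.44% of all genes). Rpl39l is in both counts but passed the filter only through its sham libraries, so its place there is not read as a result. A share of 4 in 81 is not above that of all genes. The members above 0 with the lowest p were Rpl7l1 (0.23, SE 0.18), Rpl7a (0.16, SE 0.13) and Rps21 (0.18, SE 0.21). The 3 comparisons share libraries in pairs, so their values are given side by side and not as independent of each other. For the median member they were 0.17 for MI against sham surgery, -0.37 for Foxp3DTR against WT mice after MI and -0.20 for Foxp3DTR mice against sham surgery. Without Foxp3DTR library 4 the last was -0.31, and without sham library 2 it was -0.13.

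Across libraries the members moved together. Over the 3240 pairs of members, the median Pearson r of log2 levels over the 10 libraries was 0.67, and 94.4% of pairs were above 0. The points of each r share their library and its scaling factor, and r also holds the differences between the groups. The same r over pairs of other genes was not computed, so r is given as a description. The SD of a member over the 10 libraries had a median of 0.29 (log2), against 0.21 for other genes of like level. Taken relative to the median member of the same library it fell to 0.17. Rpl18 (0.062), Rpl9 (0.077), Rpl13a (0.078) and Rps6 (0.089) were among the members that followed the median most closely. Rpl39l (0.72), Rpl13 (0.67), Rpl7l1 (0.50), Rps27a (0.49) and Rps4l (0.46) followed it least. Rpl39l and Rps4l are among the members of lowest level (means of 0.677 and 10.3 scaled TPM). Rpl39l also passed the filter only through its sham libraries, so its spread is not read as a result.

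**Figure D5:**
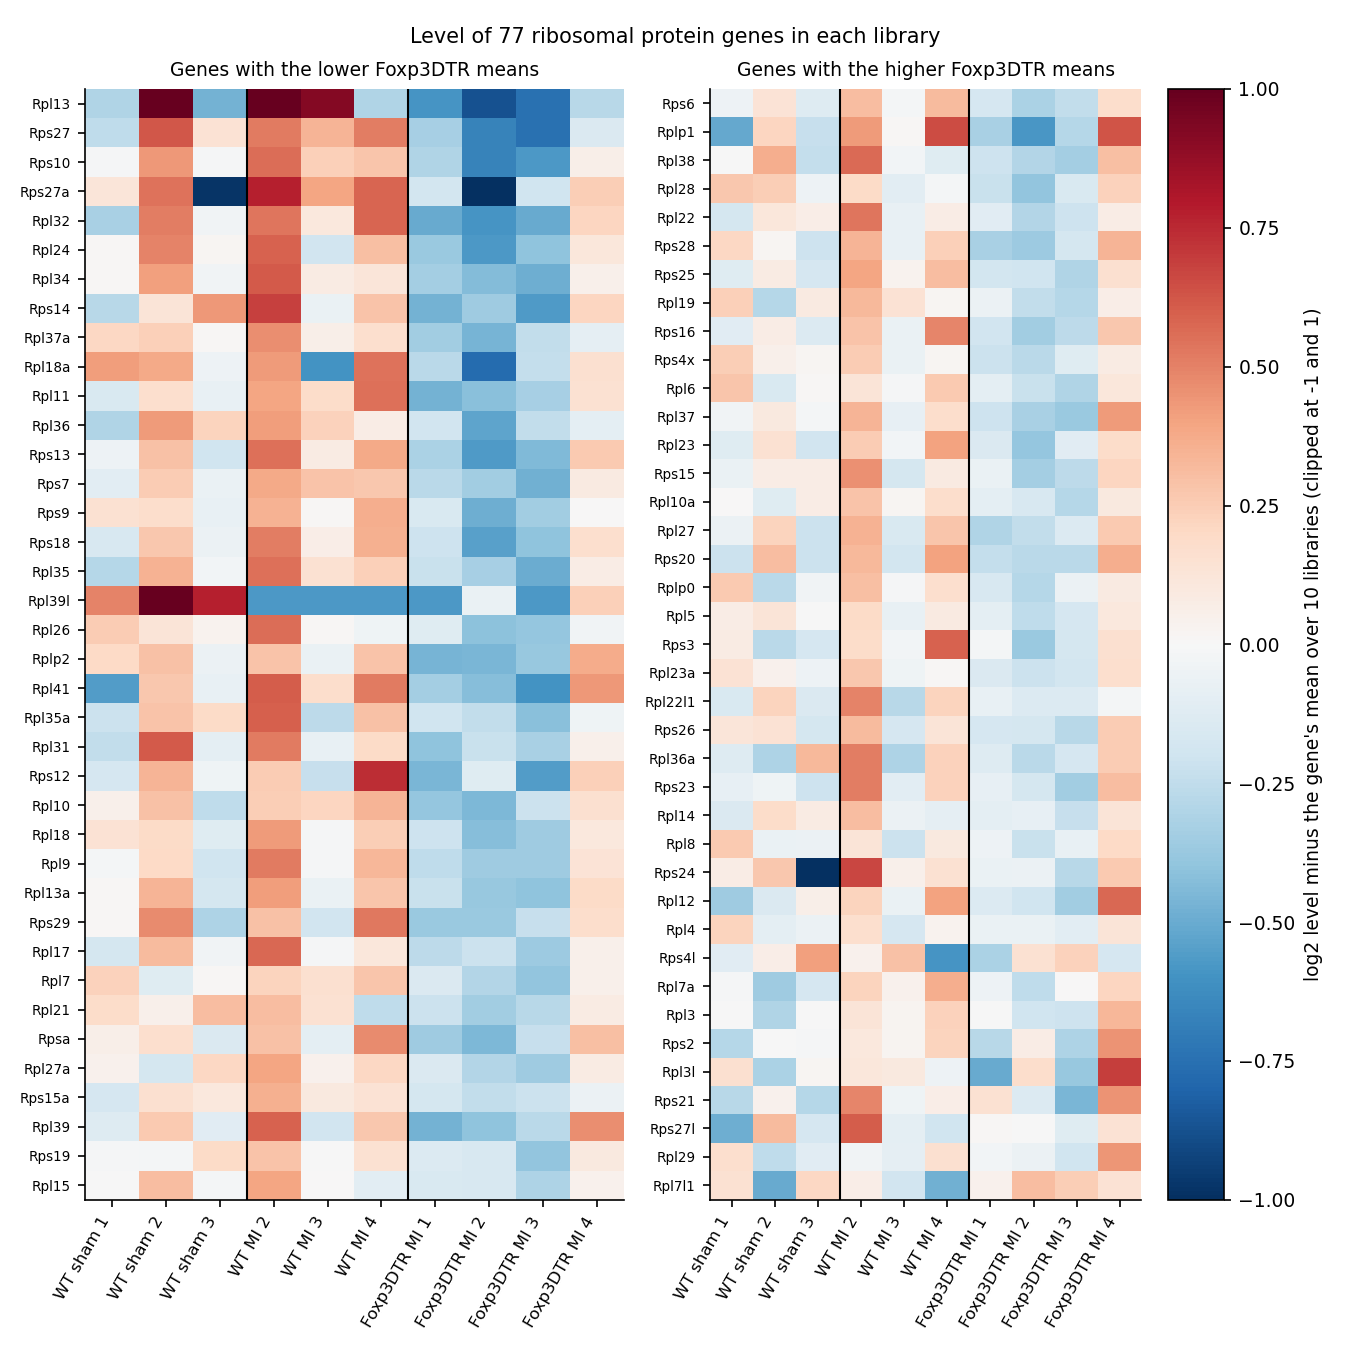
log2 level of 77 ribosomal protein genes in the 10 libraries, as the difference from each gene's mean over all libraries (colour, clipped at -1 and 1; black lines part the groups), in order of the Foxp3DTR mean. Most genes are above their mean in WT MI libraries 2 and 4 and below it in Foxp3DTR libraries 1 to 3, while in Foxp3DTR library 4 most genes are above it.

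The log2 fold change in Foxp3DTR against WT mice after MI was set beside features of the genes. Its median was -0.26 in the 27 members of lowest level, -0.34 in the 27 of middle level and -0.39 in the 27 of highest level. In the 15 genes with less than 50% of their coding stretches shared it was -0.24 (13 of 15 below 0), in the 36 with at least 50% but not all it was -0.39 (35 of 36), and in the 29 with all of them shared it was -0.39 (29 of 29). Across 80 genes, Pearson's r between the shared part and the log2 fold change was -0.35 and Spearman's rho was -0.21. Rpl39l and Rpl3l, which share no stretch, count in these values although their means were only 0.677 and 1.63 scaled TPM. Rpl39l, listed at 0 in all WT libraries after MI, is among the 2 of the 15 genes above 0. Both are also among the 27 members of lowest level, and the values without them were not computed. Genes with a run of at least 5 C or T bases over the start had a median of -0.38, with 18 of 18 below 0, and the other 43 genes with a promoter sequence had a median of -0.30, with 41 below 0. The length of the run and the fold change had an r of -0.13 across 61 genes. In the printed sets, Rps27 with its run stood at -0.93 and Rpl7a at -0.23, while Rpl11 and Rpl37a, whose annotated starts carry no run of 5 bases, stood at -0.65 and -0.52. Genes are not independent of each other, so these are descriptions.

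Some ribosomal genes that the naming rule leaves out also had lower means in Foxp3DTR than in WT mice after MI. Fau, whose protein is cut into a small subunit protein and a ubiquitin-like part, read 1993, 1516 and 1848 in WT mice after MI and 808, 909, 956 and 1445 in Foxp3DTR mice, without overlap (-0.82, SE 0.22, limma adjusted p = 0.0978). Gnb2l1, which encodes the scaffold Rack1 on the small subunit, was at 1340 ± 49.8 and 1132 ± 54.9, Rps3a1 at 557 ± 56.4 and 447 ± 79.6, and Rpl36al at 705 ± 113 and 635 ± 99.9.

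The wider machinery of protein synthesis was taken from 7 lists, whose medians lay between -0.22 and 0.14 in this comparison. Of 23 other mRNAs known for a TOP tract, Fau among them, 17 were below 0 in Foxp3DTR against WT mice after MI, with a median of -0.16. None passed the threshold, and in 5 of 23 all Foxp3DTR libraries lay below all WT libraries after MI. Of all genes 9.02% did so, and of the 2219 other genes at the level of the ribosomal protein genes 14.2% did. Tpt1, the translationally controlled tumour protein and a classical TOP mRNA, read 2573, 1932 and 1945 in WT mice after MI and 1284, 1174, 1349 and 1680 in Foxp3DTR mice, without overlap (-0.65, SE 0.20, limma adjusted p = 0.137). The TOP list thus leaned the same way by less, and Tpt1 was among its lower members.

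Among 47 translation initiation and elongation factors the median was 0.02, and 1 passed the threshold. This was Eif1a, which helps the small subunit scan for the start codon, at 64.9, 57.8 and 64.4 in WT mice after MI and 89.5, 89.5, 90.9 and 89.9 in Foxp3DTR mice (log2 difference 0.52, SE 0.10, limma adjusted p = 0.0413). Eif4g1, the scaffold of the cap-binding complex, was at 0.30 (SE 0.09, limma adjusted p = 0.131). Among 27 genes of mTORC1 and regulators of TOP mRNAs the median was -0.05, and 1 passed the threshold. This was Larp1, which binds the cap and TOP tract of these mRNAs and holds them stable and silent when mTORC1 is off. Larp1 read 95.1, 108 and 110 after sham surgery, 96.1, 100.5 and 89.7 in WT mice after MI and 123, 127, 138 and 139 in Foxp3DTR mice. All 4 Foxp3DTR libraries were above all WT libraries (0.46, SE 0.09, limma adjusted p = 0.0490). Eif1a and Larp1 passed the threshold in 11 and 10 of 21 alternative settings. Larp1 read 139 in Foxp3DTR library 4, the library of that group in which most ribosomal protein genes were highest. A link between the level of Larp1 and that of the ribosomal protein genes was not tested, and 1 library cannot decide it. Deptor, an inhibitor of mTOR, was at -0.52 (SE 0.20, limma adjusted p = 0.219).

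Genes for making ribosomes stood near 0 or slightly above it. The 48 ribosome assembly factors had a median of 0.09, with 33 above 0 and 15 below, and the 20 genes of RNA polymerase I and its factors one of 0.01, and none passed the threshold. Nop58, a core protein of box C/D small nucleolar particles, was at 0.71 (SE 0.19, limma adjusted p = 0.0978), Wdr75 at 0.47 (SE 0.17, limma adjusted p = 0.183), Myc at 0.88 (SE 0.31, limma adjusted p = 0.183) and Polr1d at -0.32 (SE 0.11, limma adjusted p = 0.184). Of 12 non-coding hosts of small nucleolar RNAs, themselves TOP transcripts in many cases, the median was -0.22 with none past the threshold. The 5 partners of Rpl13a in the GAIT complex had a median of 0.14, with Eprs at 0.42 (SE 0.13, limma adjusted p = 0.147) and Gapdh at 0.40 (SE 0.26, limma adjusted p = 0.447). In WT mice after MI against sham surgery no gene of these 7 lists passed the threshold, and their medians lay between -0.04 and 0.14.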

How the data were processed

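RNA of sorted splenic Ly6C-high monocytes (20 to 50 pg, NuGEN Ovation SoLo, single-end reads of 50 bp) was measured in 10 libraries. Tools named in the processing notes of the submitters were STAR 2.5, StringTie 1.3.0, cutadapt 1.1 and CASAVA 1.4, with mm10 as the build. The authors deposited, per gene, coverage (a signal), FPKM (per kilobase and 1e6 fragments) and TPM. These tables hold no counts, so the paper's count test was not used. Rows of 1 symbol were summed. Depth, inferred from coverage divided by FPKM, was 3.13 to 8.40 (in units of 1e6 reads). TPM gives no counting interval.

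TPM was scaled by median of ratios, and limma 3.58.1 (R 4.3.3) with a variance trend was fitted to log2(TPM + 1) of all genes at 1 TPM in at least 3 libraries, over all 3 groups, two-sided, with Benjamini-Hochberg adjustment over all of them. Adding 1 understates changes of low genes. The script was tested on simulated data. The strand setting was not found in those notes or the methods, and overlapping genes may share reads. Members, lists and tests were chosen with earlier results of these data known. Named members were those past the threshold, the 3 of lowest p each way per comparison, the extremes of level and of relative spread, the paralogs with their parents and 11 genes of special roles. Some genes that this rule names are not reported here and are left out of the plots by gene. From each pathway list, genes past the threshold and some of the lowest p were named.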

Additional observations from a re-analysis of the deposited data

Results flagged for a closer look

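Library 4 of the Foxp3DTR mice stood apart from the other 3 of its group in some, but not all, measures of the ribosomal protein genes. A highest or lowest value was singled out where its gap to the next, divided by the range of the group, was above Dixon's 95% limit for 4 samples, a limit that chance passes in about 1 group of 20. The median member met it at 0.844. The summed level (0.806), the share of all TPM (0.519) and the ratio of the subunits (0.343) did not. Of the 81 genes 7 met it, each with library 4 highest, and of the 39 named genes these were Rps20 (0.963), Rplp2 (0.922), Rpl32 (0.912), Rpl39 (0.835) and Rpl4 (0.831). The share of all tested genes that met the limit was not computed. The genes move together across libraries, so these are not separate events. The groups of 3 libraries were not examined in this way.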

How the results depend on the processing

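The median log2 fold change of the members kept its direction under all 21 alternatives in Foxp3DTR against WT mice after MI and against sham surgery. Leaving out 1 library gave -0.46 to -0.25 and -0.31 to -0.13, and 0.07 to 0.28 for MI against sham surgery. Without scaling the last turned to -0.0073 and the first moved to -0.12, while the typical gene stood 0.22 higher in Foxp3DTR than in WT mice, and the calls over all genes went from 145 (61.4% higher) to 527 (92.6% higher). The number of members called in Foxp3DTR against WT mice after MI was 1. It was 0 without scaling, without a filter, without a variance trend and with a replicate block, 2 in a fit of the 2 groups alone, and 0 to 3 when 1 library was left out (0 without any 1 of the WT MI libraries or of Foxp3DTR libraries 1 to 3, and 3 without sham library 2). Under quantile normalization the 1 call was Rpl37a, and 1 member, Rpl37a, was called against sham surgery, where no member was called otherwise. By share of TPM, the ratio of mean summed levels was 1.01 for MI against sham surgery (0.944 to 1.07 with 1 library left out) and 0.895 for Foxp3DTR against WT mice (0.847 to 0.960). By scaled TPM these ratios were 1.15 and 0.761. FPKM shares gave the same ratios. Over all genes, same-numbered libraries did not deviate together (r from -0.19 to 0.19), so the numbers were not taken as pairs, and with the replicate block the medians were 0.08, -0.34 and -0.25. Without scaling 22 of the 81 members stood above 0 in Foxp3DTR against WT mice. Of the members named here, none of them called, these turned: Rpl22l1 (0.0020), Rpl28 (0.085), Rpl3 (0.095), Rpl3l (0.078), Rpl4 (0.21), Rpl5 (0.069), Rpl7a (0.012), Rps21 (0.075), Rps27l (0.15) and Rps4x (0.046). Rpl4 also turned under quantile normalization (0.18) and without WT MI library 2 (0.040), as did Rps27l without that library (0.15). Rpl3l turned with the block (0.0076) and without Foxp3DTR libraries 1 or 3 (-0.29 to 0.11 over the libraries left out). Rps4l turned without WT MI library 4 or Foxp3DTR library 3 (-0.20 to 0.25) and, for MI against sham surgery, without WT MI library 4 (-0.39 to 0.052). The cause of these turns was not tested. TPM keeps no depth, so what depth limits was not assessed.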
